A study of Mus musculus with 4 samples.

Results

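The chaperone genes Hspb1, Hspa8, Hspa5, Hsp90aa1 and Hsp90ab1 were followed in skeletal muscle of a mouse model of Duchenne muscular dystrophy treated with an exon-skipping vector. The genes were taken by symbol from the 1000 genes of the deposited read count table, in which all 5 were listed. The treated mice were Dmd Dup2 animals given scAAV9.U7-ACCA, an AAV9 vector whose U7 cassette makes an RNA that steers splicing past an exon, and the untreated controls were Dmd Dup2 animals too, so both groups carry the duplicated dystrophin exon. Frozen tibialis anterior muscle, a leg muscle, was homogenised whole, and total RNA and ribosome-protected fragments (footprints) were sequenced from it. There was 1 library in each of 4 groups, namely treated mRNA, untreated mRNA, treated footprints and untreated footprints. Age, sex, number and pooling of the animals are not given in the labels, and no wild-type muscle was analysed here.

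Chaperones bind proteins that are not yet folded or have lost their fold, and keep them from clumping until they fold or are degraded. HSP70 proteins such as those of Hspa8 and Hspa5 bind short exposed stretches and release them in cycles driven by ATP, HSP90 proteins act later on nearly folded clients, and small heat shock proteins such as that of Hspb1 hold clients without using ATP. In muscle, chaperones help build myosin into the sarcomere and clear damaged filament proteins during contraction. Heat shock factor binds heat shock elements in the promoters of the cytosolic chaperones, while the unfolded protein response acts on Hspa5 through endoplasmic reticulum stress elements.

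The promoters of Hspa5 and Hspb1 are shown for these elements. They are the ones among the 5 genes with an entry in the promoter table used here, so no promoter of Hspa8, Hsp90aa1 or Hsp90ab1 was searched, and the matches were not compared with the expression values. Each is the 250 bases before the annotated start of transcription, 5′ to 3′ on the plus strand, from RefSeq in build GRCm38.p6. The Hspa5 promoter lies at chr2:34771840-34772089 and the Hspb1 promoter at chr5:135887669-135887918.
Hspa5: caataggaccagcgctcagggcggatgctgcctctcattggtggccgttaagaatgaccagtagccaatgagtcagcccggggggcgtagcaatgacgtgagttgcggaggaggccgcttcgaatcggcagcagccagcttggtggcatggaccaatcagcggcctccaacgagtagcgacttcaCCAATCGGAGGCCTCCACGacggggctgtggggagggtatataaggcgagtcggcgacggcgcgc
Hspb1: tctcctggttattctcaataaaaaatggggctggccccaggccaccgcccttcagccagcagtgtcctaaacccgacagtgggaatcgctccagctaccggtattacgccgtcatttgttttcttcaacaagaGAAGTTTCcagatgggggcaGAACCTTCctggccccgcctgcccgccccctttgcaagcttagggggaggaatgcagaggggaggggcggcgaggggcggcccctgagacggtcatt

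In the Hspa5 promoter the capitals mark 1 match to the endoplasmic reticulum stress element, searched on both strands as CCAAT, any 9 bases and CCACG, at 65 to 47 bases before the start. That element was found in 37 of 32851 RefSeq promoter windows of the same length, or 0.113%. In the Hspb1 promoter the capitals mark 2 matches to a pair of heat shock units, GAANNTTC, which reads the same on both strands, at 117 to 110 and 97 to 90 bases before the start. GAANNTTC was found in 6.69% of the windows, and TTCNNGAA, the other order of the same units, in 7.17% of windows and in neither of these promoters. The motifs do not overlap in these sequences, and a match of letters is a description, not a measured binding site.

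The listed genes held 4248818 reads in treated mRNA, 125236 in untreated mRNA, 1664122 in treated footprints and 3349015 in untreated footprints. The shallow untreated mRNA library sets the width of most intervals below. These intervals cover counting error only, since each group had 1 library, and the reads carry no molecular identifiers. Of 12 skeletal fibre marker genes, 11 were listed, all but Tnnt3, and they held 25.0% and 34.3% of the listed reads in treated mRNA and footprints, and 32.5% and 34.7% in untreated mRNA and footprints, so the tissue carried the markers of its label. Ratios are treated over untreated after TMM scaling over all listed genes, with 95% intervals, and translation efficiency stands for the ratio of footprints over that of mRNA. A gene was called higher or lower at a fold of at least 1.5, an interval without 1 and at least 50 reads in each pair of libraries. With 1 library per group this compares libraries, and no spread between animals could be estimated. In bulk muscle, fewer cells of a type and less RNA per cell cannot be told apart.

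Hspb1 (NM_013560) encodes a small heat shock protein that binds actin and desmin filaments in stressed muscle. Hspb1 had 2637 footprint reads in treated muscle and 1009 in untreated muscle, although the treated library was the shallower. After TMM scaling this was 1603 CPM, or counts per library of a common size (95% Poisson interval 1542 to 1665) in treated muscle, against 296 (278 to 315) in untreated muscle. Hspb1 footprints were thus 5.41-fold higher in treated muscle (5.03 to 5.82), the sixth highest ratio among 999 genes compared. Over all of these genes 19.9% were called higher and 26.2% lower in footprints.

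Hspb1 mRNA had 1369 reads in treated muscle and 32 in untreated muscle, or 405 (384 to 427) and 204 (140 to 288) scaled CPM. The intervals of these levels did not overlap, and the mRNA ratio was 1.98 (1.40 to 2.91), a call higher, where 31.8% of 996 genes were called higher and 24.8% lower. The mRNA call ended with the listed totals as scaling, at a ratio of 1.26 (0.889 to 1.85), and with the authors' constants, at 1.08 (0.759 to 1.58). Translation efficiency of Hspb1 was 2.77-fold higher (1.94 to 3.95), where 26% of 995 genes were called higher and 31.9% lower. The footprint and translation efficiency calls of Hspb1 stood in every one of the 8 and 9 alternatives run, with ratios from 4.48 to 5.71 and from 2.77 to 4.23. For translation efficiency only the 2-fold threshold could end the call. The 5 other scalings and adding 5 to every count raised that ratio, and the changed read minima could not act at these read numbers. Relative to the median listed gene, Hspb1 carried 3.99 times as many footprints per mRNA read (3.74 to 4.26) in treated muscle, against 1.44 (1.01 to 2.11) in untreated muscle. Its rank by that measure among 1000 genes was 25 in treated muscle and 250 in untreated muscle.

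**Figure D1:**
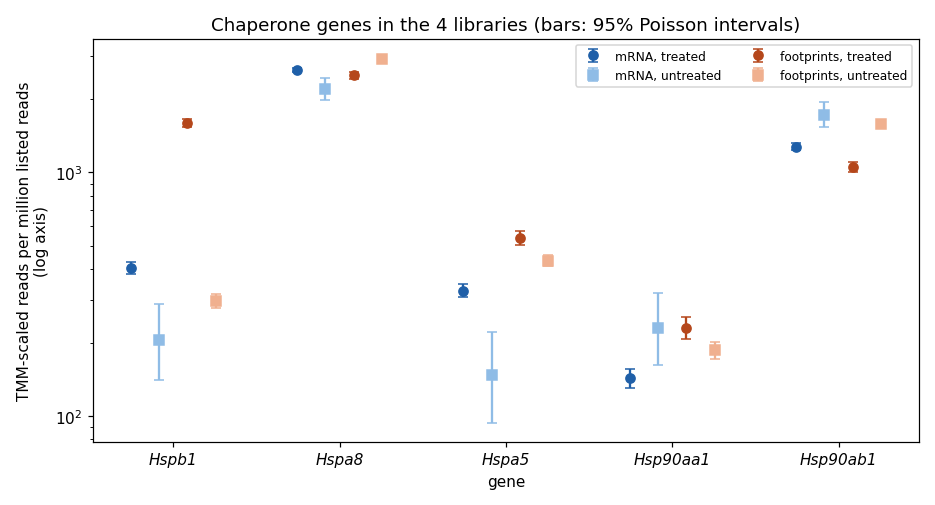
TMM-scaled CPM over the listed genes (log axis) of the 5 genes in each of the 4 libraries, with 95% Poisson intervals; circles are treated and squares untreated muscle. Treated footprints of Hspb1 stand at 1603, against 296 in untreated muscle, while the footprint ratios of the other genes lie between 0.665 and 1.24; levels are not corrected for transcript length and are compared only within a gene.

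Hspa8 (NM_031165), the constitutive cytosolic HSP70, folds new proteins and strips clathrin from vesicles. There were 8925 mRNA reads in treated muscle and 346 in untreated muscle, and 4124 footprint reads in treated muscle and 9955 in untreated muscle. The scaled mRNA level was 2642 CPM (2588 to 2698) in treated muscle and 2208 (1982 to 2454) in untreated muscle. The scaled footprint level was 2507 (2431 to 2584) in treated muscle and 2923 (2866 to 2981) in untreated muscle. None of its 3 measures reached the fold threshold. Its mRNA ratio was 1.20 (1.07 to 1.34), its footprint ratio 0.858 (0.827 to 0.889) and its translation efficiency ratio 0.718 (0.641 to 0.804). The mRNA direction of Hspa8 rests on the scaling, since the ratio was 0.649 (0.583 to 0.725) with the authors' constants, a call lower, and its translation efficiency ratio lay above 1 with those constants and with the listed totals.

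Hspa5 (NM_022310) encodes BiP, the HSP70 of the endoplasmic reticulum, which also holds the sensors of the unfolded protein response inactive. Its mRNA had 1104 reads in treated muscle and 23 in untreated muscle, or 327 (308 to 347) and 147 (93.1 to 220) scaled CPM. The mRNA ratio of 2.23 (1.48 to 3.53) was the highest of the 5 genes and was called higher. The footprint difference was smaller. Footprints had 888 reads in treated muscle and 1479 in untreated muscle, or 540 (505 to 576) and 434 (412 to 457) scaled CPM, a ratio of 1.24 (1.14 to 1.35) that stayed under the fold threshold. Translation efficiency of Hspa5 was called lower, 1.75-fold (1.16 to 2.66). Since it divides by the mRNA ratio, it rests on the same 23 untreated mRNA reads as the mRNA call. The 2 calls are thus not separate results. The mRNA call ended with the listed totals, at a ratio of 1.41 (0.938 to 2.24), and with the authors' constants, at 1.21 (0.801 to 1.91), and the translation efficiency call held in 3 of 9 alternatives, with ratios from 0.570 to 0.872. In untreated muscle Hspa5 ranked 58 of 1000 genes in footprints per mRNA read, at 2.93 times the median gene (1.94 to 4.63), and in treated muscle it stood at 1.67 times (1.52 to 1.82) and rank 254.

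Hsp90aa1 (NM_010480) encodes the inducible cytosolic HSP90 and Hsp90ab1 (NM_008302) the constitutive one. Hsp90aa1 mRNA had 482 reads in treated muscle and 36 in untreated muscle, or 143 (130 to 156) and 230 (161 to 318) scaled CPM. Its mRNA was called lower, 1.61-fold (1.11 to 2.26). Its footprints lay on the other side, with 378 reads in treated muscle and 632 in untreated muscle, or 230 (207 to 254) and 186 (171 to 201) scaled CPM, a ratio of 1.24 (1.09 to 1.41). Translation efficiency of Hsp90aa1 was 2.02-fold higher (1.41 to 2.90), a call that held in all 9 alternatives, with ratios from 2.02 to 3.09. Of these only the 2-fold threshold could end the call, and the ratio just cleared it. The 5 other scalings and adding 5 to every count raised the ratio, and the changed read minima could not act at these read numbers. This call rests on the same 36 untreated mRNA reads as the mRNA call, so the 2 are not separate results. The mRNA was 2.97-fold lower with the authors' constants, the largest value among the alternatives, and fell short of the call with a 2-fold threshold.

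Hsp90ab1 lay below 1 in both kinds of library. It had 4314 mRNA reads in treated muscle and 271 in untreated muscle, or 1277 (1239 to 1316) and 1730 (1530 to 1948) scaled CPM. Its mRNA was 1.35-fold lower (1.19 to 1.53), under the fold threshold with TMM and called lower with 4 of the 5 other scalings, where it was up to 2.50-fold lower. Its footprints had 1725 reads in treated muscle and 5367 in untreated muscle, or 1049 (1000 to 1099) and 1576 (1534 to 1619) scaled CPM. The footprint call of 1.503-fold lower (1.42 to 1.59) lies at the threshold and ended with DESeq2 size factors, at a ratio of 0.671, and without the 20 most abundant genes, at 0.702. Its translation efficiency ratio was 0.903 (0.790 to 1.03) and lay above 1 with 4 of the 5 other scalings.

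**Figure D2:**
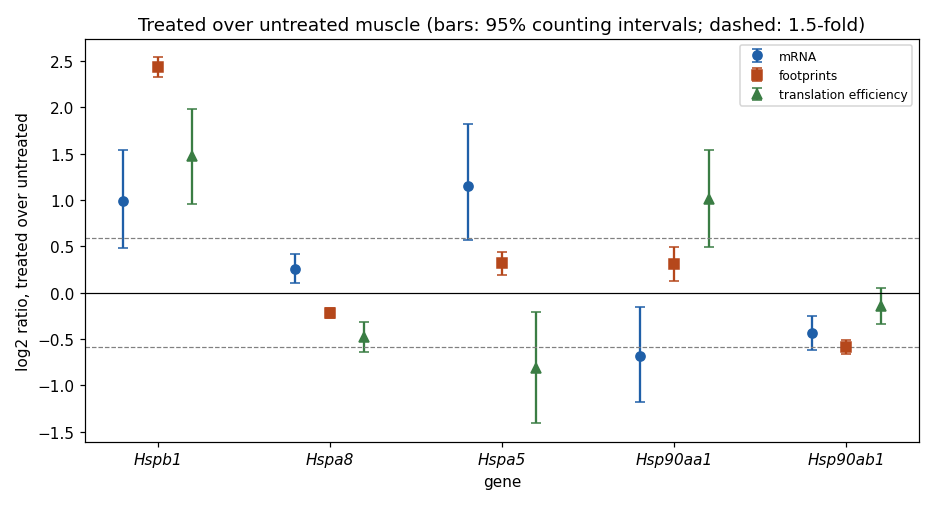
Log2 ratios of treated over untreated muscle for mRNA, footprints and translation efficiency of each gene, with 95% counting intervals; dashed lines mark 1.5-fold. Hspb1 is above the upper line in all 3 measures, and for Hsp90aa1 and Hspa8 the mRNA and footprint ratios lie on opposite sides of 0.

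Taken over the 5 genes, 2 were called higher and 1 lower in mRNA, 1 each way in footprints, and 2 higher and 1 lower in translation efficiency. The background shares were 31.8% and 24.8%, 19.9% and 26.2%, and 26% and 31.9%, so these counts are near what the whole table gives. Calls in mRNA and in translation efficiency share the same mRNA reads, so they are not separate results. The median log2 ratio of the 5 genes was 0.26 in mRNA, 0.31 in footprints and, for translation efficiency, -0.15, against 0.06, -0.02 and -0.11 over all genes compared. Their summed mRNA reads had a ratio of 1.06 (0.984 to 1.15) and their summed footprints a ratio of 1.09 (1.07 to 1.12). Leaving out Hspb1, the summed footprint ratio of the other 4 genes was 0.845 (0.822 to 0.869), and the summed mRNA ratio 1.02 (0.942 to 1.10). With TMM only Hspb1 was called in the same direction in both kinds of library. With the listed totals, the upper quartile or the authors' constants Hsp90ab1 was called lower in both. With the listed totals or the authors' constants Hspb1 mRNA was not called.

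The share of each gene in the reads of the 5 genes does not depend on library scaling. The shares in a library are bound to each other, however, so a larger Hspb1 share makes those of the other genes smaller. Hspb1 made up 27.0% of these footprint reads in treated muscle (95% exact binomial interval 26.2 to 27.9) and 5.47% (5.15 to 5.81) in untreated muscle. In mRNA Hspb1 made up 8.45% (8.03 to 8.89) in treated muscle and 4.52% (3.11 to 6.32) in untreated muscle. The share of Hsp90ab1 was lower in treated muscle in both, with 17.7% (16.9 to 18.5) of treated and 29.1% (28.4 to 29.8) of untreated footprints, and 26.6% (26.0 to 27.3) of treated and 38.3% (34.7 to 42.0) of untreated mRNA. Hspa8 held 42.3% (41.3 to 43.3) of treated and 54.0% (53.3 to 54.7) of untreated footprints. In mRNA it held 55.1% (54.3 to 55.9) of treated and 48.9% (45.1 to 52.6) of untreated reads. The lower footprint share of Hspa8 goes with the larger one of Hspb1. Leaving out Hspb1, Hspa8 had 4124 of 7115 treated and 9955 of 17433 untreated footprint reads. For mRNA these were 8925 of 14825 treated and 346 of 676 untreated reads.

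**Figure D3:**
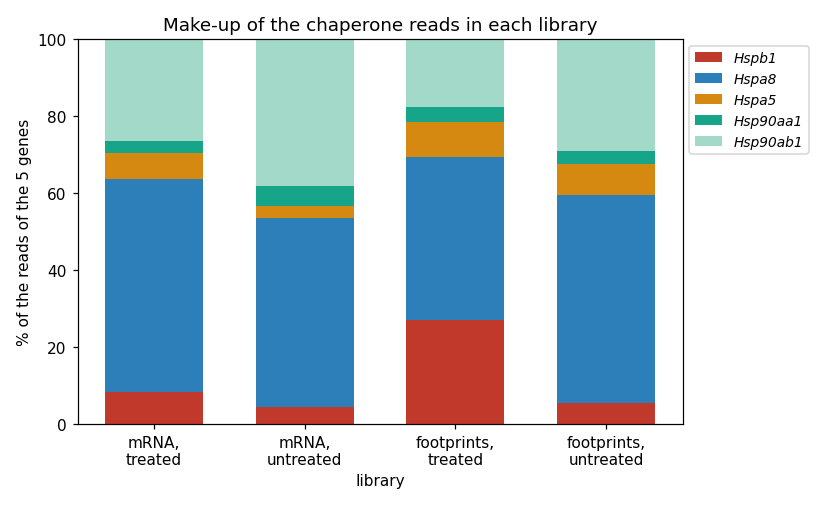
Percent of the reads of the 5 genes that fell on each gene, by library; bars start at 0 and add to 100. The Hspb1 part is 27.0% of treated footprints and 5.47% of untreated footprints; differences between genes within a bar also follow transcript length and carry no comparison.

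Ratios of 2 genes set against each other are also free of the scaling. Of the 10 pairs among the 5 genes, 8 in mRNA and 9 in footprints had ratios that differed beyond counting error. The share of such pairs over all listed genes was not worked out, so these counts describe no trait of the 5 genes. The Hspb1 footprint ratio was 8.13 times that of Hsp90ab1 (7.43 to 8.90), 6.31 times that of Hspa8 (5.82 to 6.84), 4.37 times that of Hsp90aa1 (3.77 to 5.06) and 4.35 times that of Hspa5 (3.90 to 4.86). In mRNA, Hspb1 and Hspa5 did not differ beyond counting error, at 0.891 (0.519 to 1.53). The 2 cytosolic HSP90 genes had mRNA ratios within counting error of each other, Hsp90aa1 at 0.841 times Hsp90ab1 (0.587 to 1.21), while the footprint ratio of Hsp90aa1 was 1.86 times that of Hsp90ab1 (1.62 to 2.14). Hsp90aa1 and Hsp90ab1 are close paralogs, Hspa8 has many processed pseudogenes, and the sources used here do not say how shared reads were counted, so values of these 3 genes are uncertain.

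Of 110 other chaperone symbols in 9 lists, 36 were among the listed genes. Of these 36, 3 were called higher and 8 lower in mRNA, 6 higher and 10 lower in footprints, and 8 each way in translation efficiency, where the shares over all genes were those given above (31.8% higher and 24.8% lower in mRNA, 19.9% and 26.2% in footprints, 26% and 31.9% in translation efficiency). These counts follow the scaling. With the authors' constants they were 0 higher and 25 lower in mRNA, 4 and 17 in footprints, and 18 and 2 in translation efficiency. Over all genes those constants gave 110 higher and 543 lower, 114 and 365, and 444 and 158. With the listed totals the counts of these genes were 0 and 18, 5 and 10, and 18 and 2. Over all genes the listed totals gave 148 and 464, 185 and 278, and 444 and 157. The difference of their median log2 ratio from that of all genes was -0.15 in mRNA, -0.23 in footprints and, for translation efficiency, 0.14.

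Among small heat shock proteins 3 of 8 symbols were listed. In footprints 1 was called higher and 0 lower, against 19.9% and 26.2% over all genes. Hspb8, which with Bag3 directs damaged filament proteins to autophagy, was 2.05-fold higher (1.80 to 2.33) in treated footprints and 2.14-fold higher (1.41 to 3.43) in treated mRNA, with a translation efficiency ratio of 0.979 (0.633 to 1.51). The mRNA call of Hspb8 ended with the listed totals, at a ratio of 1.36, and with the authors' constants, at 1.16. Cryab, the desmin chaperone alpha-B crystallin, had mRNA called 1.73-fold lower (1.31 to 2.25) and a footprint ratio of 0.886 (0.821 to 0.956). Hspb6, a small heat shock protein of muscle, had ratios of 1.00 (0.690 to 1.51) in mRNA and 1.14 (1.00 to 1.30) in footprints. The Hspb1 footprint ratio exceeded that of each of these 3, by 2.64 times for Hspb8 (2.29 to 3.05), 4.74 times for Hspb6 (4.09 to 5.50) and 6.11 times for Cryab (5.50 to 6.78). In mRNA Hspb1 exceeded Cryab and Hspb6 but stood at 0.927 times Hspb8 (0.536 to 1.61).

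Of the co-chaperones of HSP70, 4 of 19 symbols were listed. In footprints 2 were called higher and 1 lower, against 19.9% and 26.2% over all genes. Bag3, the scaffold that joins HSP70 to small heat shock proteins, had 484 footprint reads in treated muscle and 507 in untreated muscle, a ratio of 1.98 (1.74 to 2.24). Bag3 mRNA stood at 0.701 (0.478 to 1.07), and its translation efficiency was 2.87-fold higher (1.92 to 4.27). Dnajc7, which passes clients between HSP70 and HSP90, was 1.72-fold higher in footprints (1.502 to 1.97) and 1.92-fold higher in translation efficiency (1.15 to 3.20), and its footprint call ended with the authors' constants, at a ratio of 1.42. Dnaja2, a J-domain partner of HSP70, had a footprint ratio of 1.01 (0.899 to 1.14) and mRNA 1.67-fold higher (1.09 to 2.72), a call that ended with 4 of the 5 other scalings and turned below 1 with the authors' constants. St13, the HSP70-interacting protein Hip, was 2.22-fold lower in footprints (1.84 to 2.70) and 2.17-fold lower in mRNA (1.43 to 3.19). Hspa4, an HSP110 exchange factor and the only listed symbol of 9 in its family, had ratios of 1.10 (0.767 to 1.63) in mRNA and 0.839 (0.729 to 0.964) in footprints. Against Hspa8, the footprint ratio was larger for Bag3, Dnajc7 and Dnaja2, smaller for St13 and within counting error for Hspa4.

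Of the HSP90 co-chaperones, 5 of 11 symbols were listed, with 1 called higher and 1 lower in footprints and 1 lower in mRNA. Over all genes 19.9% were called higher and 26.2% lower in footprints, and 24.8% lower in mRNA. Unc45b, the myosin-folding partner of HSP90 in muscle, was 1.53-fold higher in footprints (1.42 to 1.65), with an mRNA ratio of 1.14 (0.876 to 1.52). The footprint call of Unc45b lies at the threshold and ended with the listed totals, at a ratio of 1.49, with the upper quartile, at 1.41, and with the authors' constants, at 1.27. Itgb1bp2, which encodes the muscle protein melusin, was 2.49-fold lower in footprints (2.18 to 2.86) and 3.10-fold lower in mRNA (2.28 to 4.14). Stip1, the adaptor between HSP70 and HSP90, had a footprint ratio of 1.05 (0.921 to 1.20) and Fkbp4, an immunophilin of steroid receptor complexes, one of 0.705 (0.564 to 0.876), and neither was called. The footprint ratio of Hsp90ab1 was 0.435 times that of Unc45b (0.397 to 0.476) and that of Hsp90aa1 0.809 times (0.699 to 0.937).

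Of 22 symbols of endoplasmic reticulum chaperones and folding enzymes, 7 were listed, and their footprints were called lower for 5 and higher for 0, against 26.2% lower over all genes. Serpinh1, the collagen chaperone, was 2.85-fold lower in footprints (2.37 to 3.43), with an mRNA ratio of 0.759 (0.443 to 1.41). P4hb, a protein disulfide isomerase that is also a subunit of the collagen hydroxylase, was 2.31-fold lower in footprints (2.03 to 2.63) and 1.65-fold higher in mRNA (1.06 to 2.72), a call that ended with 4 of the 5 other scalings and turned below 1 with the authors' constants. Calr, the lectin chaperone calreticulin, had a footprint ratio of 0.841 (0.775 to 0.913) and Hsp90b1, the HSP90 of the reticulum, one of 0.763 (0.690 to 0.843). The footprint ratio of Hspa5 exceeded that of all 7, by 1.48 times (1.32 to 1.66) for Calr up to 3.54 times (2.90 to 4.31) for Serpinh1, and its mRNA ratio exceeded 4 of the 7 beyond counting error. Translation efficiency was called lower for 5 of the 7 and higher for 1, against 31.9% and 26% over all genes. With the listed totals or the authors' constants it was called lower for 2 of the 7, and over all genes the calls were 157 lower and 444 higher with the listed totals, where TMM gave 317 lower and 259 higher.

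Markers of other cells differed between these libraries, and so did some skeletal fibre markers. Of the 11 listed skeletal fibre markers, 4 were called higher and 0 lower in mRNA, and 2 higher and 3 lower in footprints. Of 11 fibroblast and matrix markers 9 were listed, all but Pdgfra and Postn. They held 0.326% of listed reads in treated mRNA and 2.28% in untreated mRNA, and 0.627% in treated footprints and 2.92% in untreated footprints. Their footprints were called lower for 8 and higher for 0, but their mRNA was called lower for 6 and higher for 2, Dcn at a ratio of 3.02 (2.35 to 3.95) and Fbn1 at 2.81 (1.77 to 4.76). Over all genes 26.2% were called lower and 19.9% higher in footprints, and 24.8% lower and 31.8% higher in mRNA. The 5 listed of 12 macrophage markers held 0.0197% in treated mRNA and 0.137% in untreated mRNA, and 0.0636% in treated footprints and 0.144% in untreated footprints, with all 5 called lower in both. They had 15 to 61 untreated mRNA reads, and genes were listed by such reads, down to 14. Listing thus favoured markers that are high in untreated mRNA, and those not listed could not be compared. Of 7 endothelial and smooth muscle markers only Acta2 was listed, with a footprint ratio of 0.755 (0.728 to 0.782). No listed marker was at 0 reads in any library, but neither was any other listed gene, the lowest count being 13. The part of these cells in the values of the chaperone genes was not tested.

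**Figure D4:**
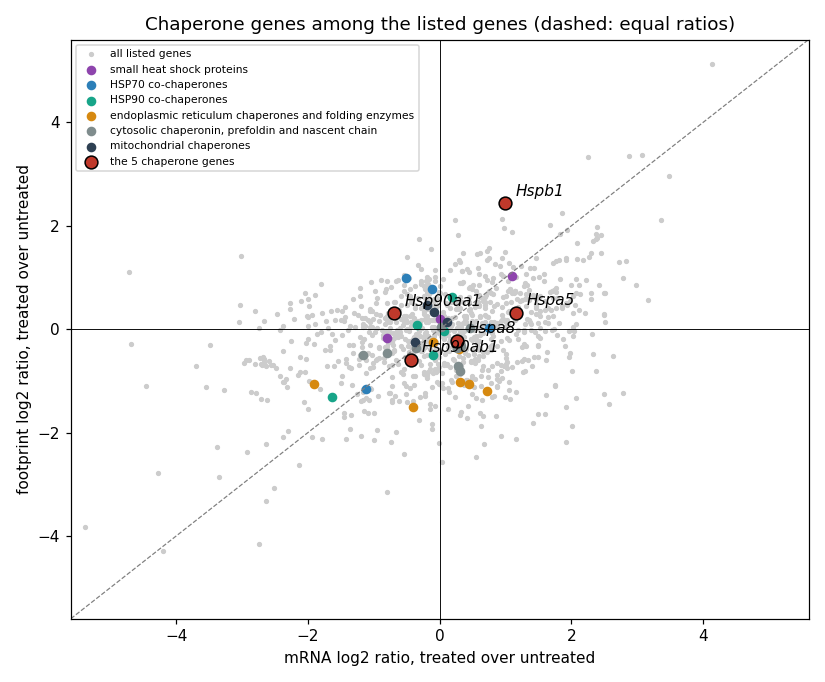
Footprint against mRNA log2 ratio, treated over untreated, for all 1000 listed genes (grey), 6 of the chaperone lists (coloured) and the 5 chaperone genes (red, named); the dashed line marks equal ratios. Hspb1 lies high above the line, at 2.44 in footprints and 0.99 in mRNA, and most endoplasmic reticulum genes lie below 0 in footprints, apart from Hspa5 at 0.31.

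The cytosolic chaperonin, prefoldin and nascent chain list, whose chaperonin ring folds actin and tubulin, had 9 of 14 symbols listed. Of these, 2 were called lower and 0 higher in mRNA, and 2 lower and 0 higher in footprints. Over all genes 24.8% were called lower and 31.8% higher in mRNA, and 26.2% and 19.9% in footprints, so the lower counts are near those shares. Tcp1 was 1.75-fold lower in footprints (1.52 to 2.01) and Cct4 1.64-fold (1.37 to 1.97), both ring subunits. Cct6a had a footprint ratio of 1.03 (0.886 to 1.20) and Naca, a subunit of the complex that binds new chains at the ribosome, 1.01 (0.966 to 1.06).

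The genes whose pattern over the 4 libraries was nearest to each chaperone gene were found by the distance between centred log2 scaled reads, among 994 candidates. Hspa8 had the closest neighbours, Cct7 at 0.08 and Dusp27 at 0.11 log2 units. Hsp90aa1 was nearest to Rac1 (0.11) and Cpt2 (0.11), Hsp90ab1 to Sf3b2 (0.13) and Palld (0.22), and Hspa5 to Ywhae (0.18) and Cst3 (0.20). The neighbours named so far had 17 to 37 untreated mRNA reads. Listed genes with 20 to 40 such reads had a median mRNA interval half-width of 0.61 log2 units. Which of many genes came nearest is thus within counting error. Hspb1 had no neighbour closer than 0.69, where Ubb, a polyubiquitin gene, stood, followed by Pfkm, muscle phosphofructokinase, at 0.83. Among the 5 genes themselves the distances ran from 0.67, between Hsp90ab1 and Hspa8, to 2.77, between Hsp90ab1 and Hspb1.

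Library scaling moved all ratios of a comparison together, and the mRNA ratios of Hspb6, Hspa4, Dnaja2, Unc45b, P4hb, Hspa9 and Cct6a, like that of Hspa8, were among those that lay above 1 with TMM and below 1 with the authors' constants. Against TMM the median mRNA log2 ratio of all genes moved by -0.88 with the authors' constants and by -0.65 with the listed totals, and the median footprint log2 ratio by -0.27 and -0.04. Genes called higher made up 56.2% of called genes in mRNA with TMM, 16.8% with the authors' constants and 24.2% with the listed totals, and 43.2%, 23.8% and 39.96% in footprints. Relative to the median gene, which no scaling alters, the log2 ratio was 0.93 for Hspb1 mRNA and 2.46 for its footprints, and 1.10 and 0.33 for Hspa5. It was 0.20 and -0.20 for Hspa8, -0.75 and 0.33 for Hsp90aa1, and -0.50 and -0.57 for Hsp90ab1. Hspb1, Hspa5 and Hsp90aa1 had 23 to 36 untreated mRNA reads, and the 382 listed genes with 20 to 40 such reads had a median mRNA log2 ratio of -0.01 and a median interval half-width of 0.61.

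**Figure D5:**
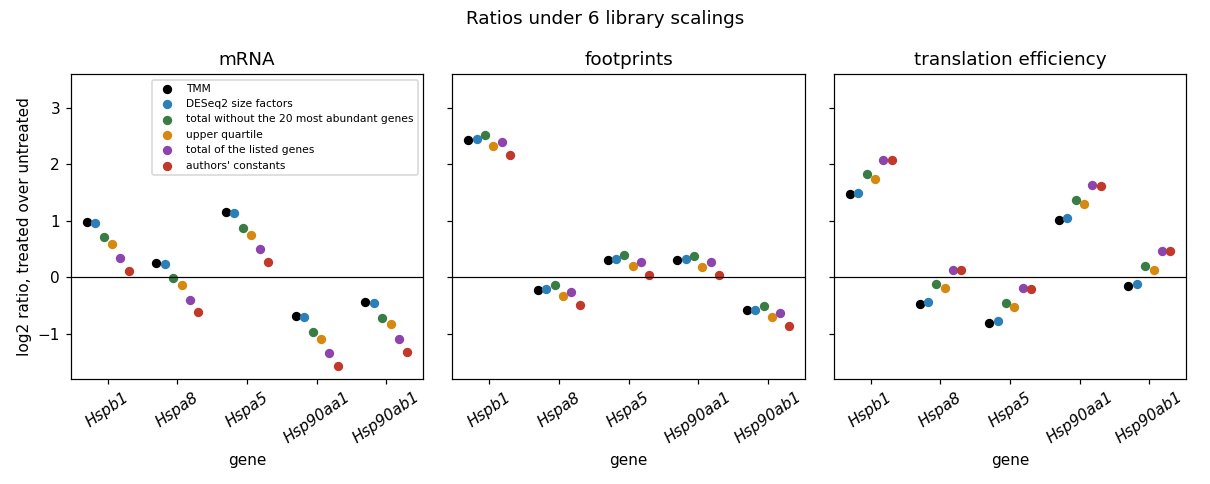
Log2 ratios, treated over untreated, of the 5 genes in mRNA, footprints and translation efficiency under TMM and 5 other scalings of the libraries. Hspb1 stays above 0 in every panel, while Hspa8 mRNA crosses 0, at 0.26 with TMM and -0.62 with the authors' constants.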

How the data were processed

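The authors deposited 1 table of 1000 genes sorted by untreated mRNA reads, the lowest being 14. Genes with fewer such reads are not analysed here, which favours lower mRNA calls among genes near that limit. Per the file headers it holds read counts and normalized read counts; these equal the deposited count times 1 constant per library and are read here as CPM, inferred from the values. The submitters' processing notes name Trimmomatic, STAR, edgeR and the build mm9. The sources used here do not give the counter, the strand setting or the handling of multiply mapped reads.

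The members and gene lists were chosen with earlier results of these data known. Counts were scaled by TMM (edgeR 4.0.16, R 4.3.3) over all listed genes. Ratios have exact conditional binomial intervals. For translation efficiency 0.5 was added to every count, and its intervals, like those for ratios of 2 genes, are normal intervals of log ratios. Each group being a single library, nothing was tested between groups. Named genes were the 5 members, the 2 highest and 2 lowest footprint ratios of each chaperone list, and the 2 nearest patterns of each member. Calls and intervals were tried on simulated counts with Poisson error only, which hold no spread between animals or libraries and say nothing about it. Alternatives were 5 other scalings (DESeq2 1.42.0 among them), no minimum or 200 reads, a 2-fold threshold and 5 added to counts. The motif search used both strands, and promoters of 2 of the 5 genes were matched by symbol. Promoter motifs and the comparisons of 2 genes were chosen after the data were seen.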

Additional observations from a re-analysis of the deposited data

Results flagged for a closer look

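Hsp90aa1 was singled out because its mRNA ratio lay below 1 and its footprint ratio above 1, both with intervals that left out 1, giving a translation efficiency ratio of 2.02 (1.41 to 2.90). With the authors' constants the footprint interval held 1, at a ratio of 1.03 (0.901 to 1.17). Hspa8 was singled out for the opposite arrangement, mRNA above and footprints below 1, with a translation efficiency ratio of 0.718 (0.641 to 0.804). With the listed totals, the upper quartile, the authors' constants or without the 20 most abundant genes its mRNA ratio was below 1 too. The difference between mRNA and footprints was not tested, since there was 1 library per group.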

How the results depend on the processing

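No paired analysis was possible because each group had 1 library, and for the same reason none was left out in turn. The untreated mRNA depth, with 23 to 36 reads for 3 of the 5 genes, limits the mRNA and translation efficiency values. Footprint calls of Hspb1 and translation efficiency calls of Hspb1 and Hsp90aa1 held in every alternative run. Dropping the read minimum or setting it to 200 could not alter a call of the 5 genes, which all had more reads than that in each pair. For translation efficiency all 5 other scalings moved the ratios upward, by 0.03 to 0.61 log2 units, so they could not end a higher call. Adding 5 to every count also raised the translation efficiency ratios of Hspb1 and Hsp90aa1. Every alternative also rests on the same few untreated mRNA reads. Values in parentheses below are log2 ratios, treated over untreated, and the cause of each difference was not tested. With DESeq2 size factors, calls were lost for footprints of Hsp90ab1 (-0.58). Other named genes changed sign in 1 mRNA value, 2 translation efficiency values. Of the 5 genes, the number called lower in footprints became 0. With the listed totals, calls were lost for mRNA of Hspa5 (0.50), Hspb1 (0.33) and translation efficiency of Hspa5 (-0.20), calls were gained for mRNA of Hsp90ab1 (-1.09), the sign changed for mRNA of Hspa8 (-0.40) and translation efficiency of Hsp90ab1 (0.47), Hspa8 (0.14), with the same call, values lay outside the TMM interval for mRNA of Hsp90aa1 (-1.34) and translation efficiency of Hsp90aa1 (1.63), Hspb1 (2.08). Other named genes changed sign in 2 footprint values, 9 mRNA values, 6 translation efficiency values, with a call lost or gained along with the sign in mRNA of Hspb6 (-0.65). Among the 5 genes, the count called higher in mRNA became 0, lower in mRNA became 2, lower in translation efficiency became 0. With the upper quartile, calls were lost for translation efficiency of Hspa5 (-0.53), calls were gained for mRNA of Hsp90ab1 (-0.84), the sign changed for mRNA of Hspa8 (-0.14) and translation efficiency of Hsp90ab1 (0.13), with the same call, values lay outside the TMM interval for footprints of Hsp90ab1 (-0.70), Hspa8 (-0.34), Hspb1 (2.32) and translation efficiency of Hspa8 (-0.20). Other named genes changed sign in 4 footprint values, 8 mRNA values, 3 translation efficiency values. The number of the 5 genes called lower in mRNA became 2, lower in translation efficiency became 0. Without the 20 most abundant genes, calls were lost for footprints of Hsp90ab1 (-0.51) and translation efficiency of Hspa5 (-0.46), calls were gained for mRNA of Hsp90ab1 (-0.71), the sign changed for mRNA of Hspa8 (-0.018) and translation efficiency of Hsp90ab1 (0.21), with the same call, values lay outside the TMM interval for footprints of Hspa8 (-0.14) and translation efficiency of Hspa8 (-0.12). Other named genes changed sign in 5 mRNA values, 3 translation efficiency values. Of the 5 genes, the number called lower in mRNA became 2, lower in footprints became 0, lower in translation efficiency became 0. With the authors' constants, calls were lost for mRNA of Hspa5 (0.27), Hspb1 (0.11) and translation efficiency of Hspa5 (-0.20), calls were gained for mRNA of Hsp90ab1 (-1.32), the sign changed for mRNA of Hspa8 (-0.62) and translation efficiency of Hsp90ab1 (0.46), Hspa8 (0.13), with the same call, values lay outside the TMM interval for mRNA of Hsp90aa1 (-1.57) and footprints of Hsp90aa1 (0.037), Hsp90ab1 (-0.86), Hspa5 (0.042), Hspa8 (-0.49), Hspb1 (2.16) and translation efficiency of Hsp90aa1 (1.62), Hspb1 (2.08). Other named genes changed sign in 6 footprint values, 11 mRNA values, 6 translation efficiency values, with a call lost or gained along with the sign in mRNA of Hspb6 (-0.88), Hspa4 (-0.75), Dnaja2 (-0.14), Unc45b (-0.69), P4hb (-0.16), Hspa9 (-0.77), Cct6a (-0.86). Among the 5 genes, the count called higher in mRNA became 0, lower in mRNA became 3, lower in translation efficiency became 0. With a 2-fold threshold, calls were lost for mRNA of Hsp90aa1 (-0.69), Hspb1 (0.99) and footprints of Hsp90ab1 (-0.59) and translation efficiency of Hspa5 (-0.81). The number of the 5 genes called higher in mRNA became 1, lower in mRNA became 0, lower in footprints became 0, lower in translation efficiency became 0. With 5 added to each count, calls were lost for translation efficiency of Hspa5 (-0.56). Other named genes changed sign in 3 translation efficiency values. Of the 5 genes, the number called lower in translation efficiency became 0.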

Other observations

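Of 9 symbols of mitochondrial chaperones 4 were listed. With TMM 0 were called in mRNA or footprints and 1 was called higher in translation efficiency, against 31.8% higher and 24.8% lower in mRNA, 19.9% and 26.2% in footprints, and 26% higher in translation efficiency over all genes. With the authors' constants the mRNA of all 4 was called lower and their translation efficiency higher, while 0 were called in footprints. Over all genes those constants gave 543 lower calls in mRNA and 444 higher calls in translation efficiency, so these counts follow the scaling. Trap1, the mitochondrial HSP90, had the highest footprint ratio of the list at 1.38 (1.23 to 1.55) and was the gene called in translation efficiency, at 1.60 (1.13 to 2.27). Hspd1, the chaperonin HSP60, had the lowest footprint ratio at 0.839 (0.734 to 0.958). In footprints Hspa9, the mitochondrial HSP70, stood at 1.10 (1.02 to 1.17) and Lonp1, a matrix protease, at 1.26 (1.04 to 1.53).

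Of 13 symbols of unfolded protein response regulators 2 were listed, both called higher in footprints, where 19.9% of all genes were. Herpud1, a membrane protein of endoplasmic reticulum-associated degradation, was 1.97-fold higher (1.71 to 2.27), with an mRNA ratio of 0.890 (0.624 to 1.31). Selk, a selenoprotein of the endoplasmic reticulum, was 2.67-fold higher in footprints (1.96 to 3.65), from 98 reads in treated muscle and 76 in untreated muscle. Selk mRNA was 8.06-fold lower (5.37 to 11.9), from 99 reads in treated muscle and 37 in untreated muscle. Of 5 symbols of heat shock factor genes only Hsf2 was listed, 1.71-fold lower in mRNA (1.01 to 2.72) and 1.65-fold lower in footprints (1.30 to 2.10).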
